A study of Homo sapiens with 6 samples.

Results

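The integrin and laminin genes of human U-2 OS cells were compared between cells with and without a knock-down of SFPQ, an RNA- and DNA-binding protein of the nucleus. The genes were chosen by name: every protein-coding gene in the deposited table whose symbol begins with ITGA, with ITGB and a digit, with LAMA, with LAMB, or with LAMC and a digit. This gave 41 of the 60664 genes of the table and of its 19942 protein-coding genes. They are 18 integrin alpha chains, 8 integrin beta chains, 12 laminin chains and 3 proteins (ITGB1BP1, ITGB1BP2 and ITGB3BP) that share the letters but are integrin-binding proteins and not integrin chains. U-2 OS is an established osteosarcoma line, labelled as bone and polyploid. The cells were transfected with control siRNA (siCTRL) or with siRNA against SFPQ (siSFPQ) by lipofection, at a final 30 nM, and polyadenylated RNA was sequenced from 3 biological replicates of each. The study used these libraries to find the genes whose RNA changed when SFPQ was lost. Both conditions come from 1 cell line and a transient knock-down.

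Integrins are receptors of the plasma membrane, each made of an alpha and a beta chain, that hold cells to the extracellular matrix and connect it to the actin or keratin cytoskeleton. Laminins are secreted trimers of an alpha, a beta and a gamma chain that form the scaffold of basement membranes and are themselves ligands of several integrins. Which chains a cell makes decides which pairs and trimers it can assemble, and osteosarcoma cells use them to attach, spread and migrate.

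The libraries held between 43469321 and 47119203 counts on genes, and at these totals 3 counts, taken as the lowest level that can be told from absence, correspond to 0.0637 to 0.069 CPM, counts scaled to the same total in every library. This limit covers counting error only. SFPQ itself (ENSG00000116560, chromosome 1, 35176378 to 35193446, minus strand) had 22338, 23139 and 21753 counts in siCTRL replicates 1, 2 and 3 and 3140, 3863 and 3151 in the same replicates of siSFPQ. Its log2 fold change (log2 FC) was -2.73 (SE 0.050, adjusted p = 6.34e-30), and each siSFPQ library lay far below each siCTRL library. Among the markers of the labelled cell type, RUNX2, COL1A1, SPARC and VIM were abundant, while TWIST1 was at 0 in all 6 libraries and SP7, a transcription factor of osteoblasts, had too few counts to be tested. RNA was taken from whole cultures, so fewer cells expressing a gene and less of its RNA per cell cannot be told apart for any of the genes.

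Of the 41 genes, 40 reached 10 counts summed over the 6 libraries and entered edgeR's quasi-likelihood fit, in which p was adjusted by Benjamini and Hochberg's method over all 29022 genes tested. The remaining gene, the laminin chain LAMB4, had 0, 0 and 0 counts in siCTRL and 2, 0 and 0 in siSFPQ. At an adjusted p under 0.05, 13 genes were higher and 19 were lower in siSFPQ, and 8 did not pass. Over all genes tested, 22.4% were higher and 22.1% lower by this rule, and over protein-coding genes 28.0% and 30.9%. The study's fold threshold of 1.5 on the log2 scale, in addition to an adjusted p below 0.05, was passed by 2 genes in the higher direction (ITGAM and ITGB7) and by 3 in the lower (LAMA2, LAMA4 and ITGA8). The background for this stricter rule was 5.54% higher and 4.77% lower of all genes tested, and 3.28% and 4.97% of protein-coding genes. In 34 of the 40 genes the normalized counts of the conditions did not overlap, against 52.3% of all genes and 65.2% of protein-coding genes. The median log2 fold change of the 40 genes was -0.16, beside 0.019 for all genes tested. Thus most of these genes changed, by amounts mostly under the fold threshold and in both directions.

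**Figure D1:**
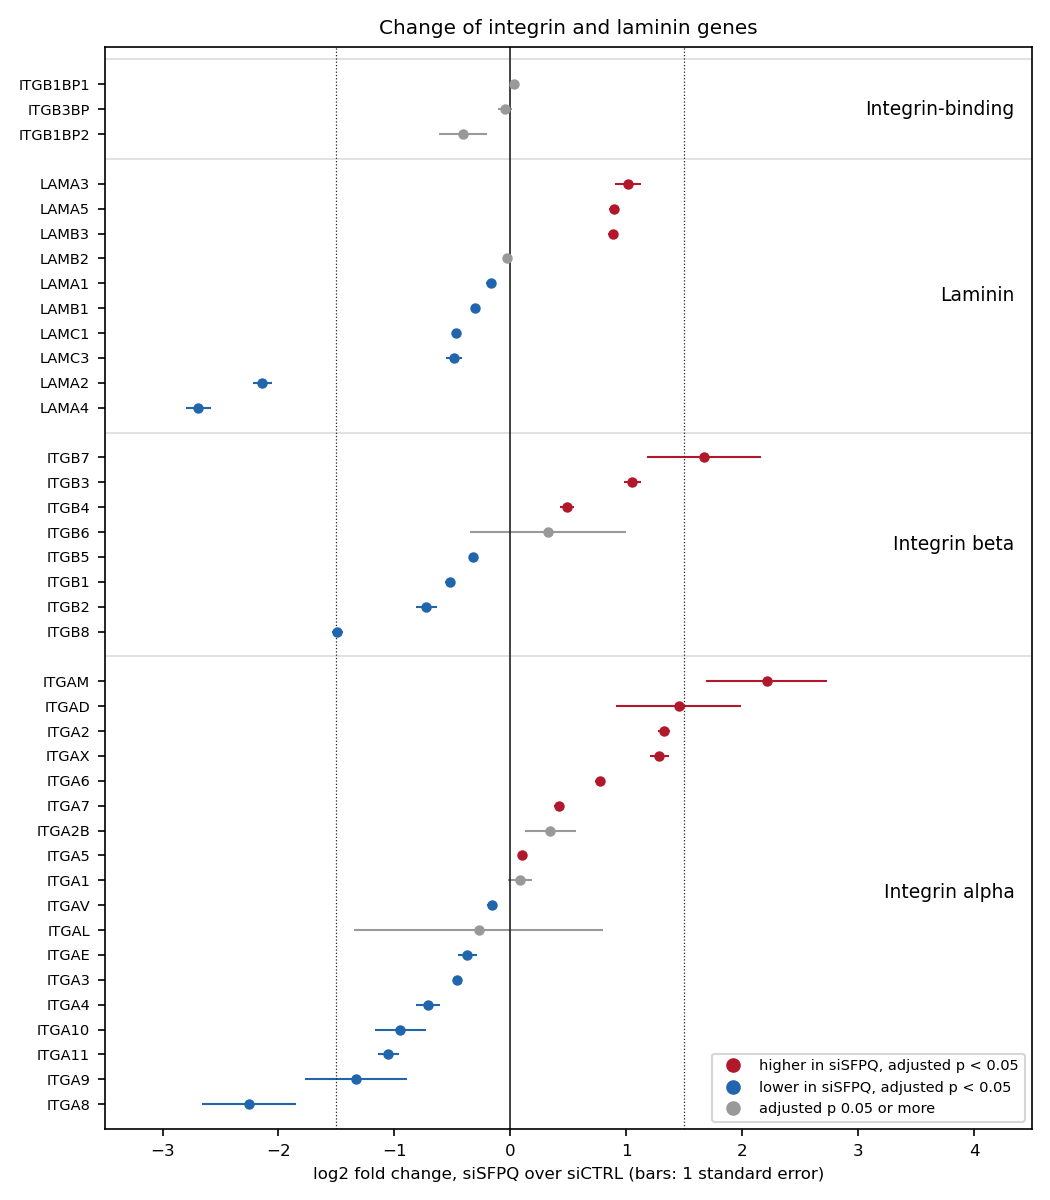
Log2 fold change (horizontal axis, siSFPQ over siCTRL) of 39 of the 40 tested genes, one row per gene and grouped by kind of chain, with bars of 1 standard error, 3 libraries per condition, and dotted lines at the fold threshold of 1.5 in either direction. The points run from -2.69 (LAMA4) to 2.21 (ITGAM), and the widest bars belong to genes with few counts.

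The laminin alpha chains, which carry the main receptor-binding domains of the trimer, went in opposite directions. LAMA4 (ENSG00000112769, chromosome 6, 112107931 to 112254939, minus strand), an alpha chain of vascular and mesenchymal basement membranes, had 732, 766 and 625 normalized counts in siCTRL replicates 1, 2 and 3 and 101, 114 and 113 in the same replicates of siSFPQ. LAMA2 (ENSG00000196569, chromosome 6, 128883138 to 129516566, plus strand), the alpha chain of muscle and peripheral nerve laminin, had 1092, 1062 and 999 normalized counts in siCTRL replicates 1, 2 and 3 and 227, 247 and 242 in the same replicates of siSFPQ. Every siSFPQ library was far below every siCTRL library for both chains. The log2 fold change was -2.69 (SE 0.11, adjusted p = 1.39e-20) for LAMA4, which is 6.46-fold lower, and -2.14 (SE 0.081, adjusted p = 3.52e-21) for LAMA2, which is 4.40-fold lower. LAMA5 (ENSG00000130702, chromosome 20, 62307955 to 62367312, minus strand), the widespread alpha chain of adult basement membranes, rose instead. It had 10083, 10901 and 8980.0 normalized counts in siCTRL and 19014, 18522 and 18202 after the knock-down, a log2 fold change of 0.90 (SE 0.046, adjusted p = 1.25e-17). LAMA3 (ENSG00000053747, chromosome 18, 23689453 to 23956222, plus strand), the alpha chain of the epithelial laminin that anchors skin, also rose, from 162, 239 and 198 to 426, 397 and 389 normalized counts. Its log2 fold change was 1.02 (SE 0.12, adjusted p = 4.41e-09), and the conditions did not overlap. LAMA1 (ENSG00000101680, chromosome 18, 6941742 to 7117797, minus strand), the alpha chain of embryonic basement membranes, had 6021, 6292 and 5562 normalized counts in siCTRL and 5336, 5311 and 5263 after the knock-down. It was slightly lower, with a log2 fold change of -0.17 (SE 0.042, adjusted p = 0.00117).

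Because a longer transcript yields more reads, levels of different chains are compared here as TPM, in which counts are divided by the summed length of each gene's annotated exons and scaled to the same total in every library. On this scale the laminin alpha chains together came to 102 ± 9.57 TPM in siCTRL and 142 ± 2.26 TPM in siSFPQ (SD, n = 3), and the conditions did not overlap. Within that sum the share of LAMA5 went from 58.8% ± 0.773 to 77.4% ± 0.263, and that of LAMA1 from 31.7% ± 0.701 to 19.9% ± 0.239. LAMA4 went from 4.97% ± 0.143 to 0.543% ± 0.0445 of the sum and LAMA2 from 3.36% ± 0.192 to 0.537% ± 0.0312. LAMA3, although it rose, made up 1.66% of the alpha chains in siSFPQ. LAMA5 was thus the most abundant alpha chain in both conditions, followed by LAMA1. LAMA3, the scarcest tested alpha chain in siCTRL, stood above LAMA4 and LAMA2 in siSFPQ. The order of those chains depended on the length used: with the length of the canonical transcript in place of all exons, LAMA2 went from 6.33% ± 0.339 to 1.09% ± 0.0623 and LAMA4 from 5.69% ± 0.173 to 0.672% ± 0.0543, so LAMA2 was the higher of them, while LAMA3 stayed above both in siSFPQ.

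Of the laminin beta chains, LAMB3 (ENSG00000196878, chromosome 1, 209614870 to 209652425, minus strand), the partner of LAMA3 in the epithelial laminin, rose. It had 7040.4, 7221 and 7791 normalized counts in siCTRL and 13617, 12808 and 14233 after the knock-down, with a log2 fold change of 0.88 (SE 0.042, adjusted p = 1.87e-18) and no overlap. LAMB1 (ENSG00000091136, chromosome 7, 107923799 to 108003213, minus strand), the common partner of LAMC1, had 12567, 13502 and 12697 normalized counts in siCTRL and 10052, 11005 and 10359 after the knock-down, with a log2 fold change of -0.30 (SE 0.039, adjusted p = 7.56e-08). LAMB2 (ENSG00000172037, chromosome 3, 49121114 to 49133118, minus strand), the beta chain of neuromuscular and kidney laminins, did not pass the test: it had 16194, 15949.9 and 15979.6 normalized counts in siCTRL and 15527, 15757 and 15905 after the knock-down, with a log2 fold change of -0.028 (SE 0.035, adjusted p = 0.557). Per length the beta chains summed to 397 ± 3.20 TPM in siCTRL and 489 ± 13.6 TPM in siSFPQ. The share of LAMB3 in that sum went from 34.3% ± 1.31 to 50.5% ± 1.47, that of LAMB2 from 50.7% ± 1.10 to 39.7% ± 0.855 and that of LAMB1 from 15.1% ± 0.630 to 9.77% ± 0.624. LAMB2 was the leading beta chain in siCTRL and LAMB3 in siSFPQ, with either length. With the canonical length the share of LAMB1 was larger, going from 33.0% ± 1.08 to 23.2% ± 1.25, and in siCTRL it stood above that of LAMB3, which went from 26.4% ± 1.17 to 42.2% ± 1.64.

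Of the laminin gamma chains, LAMC1 and LAMC3 were lower. LAMC1 (ENSG00000135862, chromosome 1, 183023420 to 183145592, plus strand), the gamma chain of most laminins, had 22485, 24913 and 22506 normalized counts in siCTRL and 16742, 16978 and 16880.2 after the knock-down, and its log2 fold change was -0.47 (SE 0.039, adjusted p = 3.26e-12). LAMC3 (ENSG00000050555, chromosome 9, 131009174 to 131094473, plus strand) had 1178, 1324 and 1128 normalized counts in siCTRL and 893, 894 and 809 after the knock-down, with a log2 fold change of -0.48 (SE 0.067, adjusted p = 2.55e-07). In both genes the siSFPQ libraries lay below the siCTRL libraries. The 12 laminin chains together summed to 798 ± 29.4 TPM in siCTRL and 849 ± 16.6 TPM in siSFPQ, with overlap between the conditions, while the sums of the alpha and of the beta chains did not overlap.

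**Figure D2:**
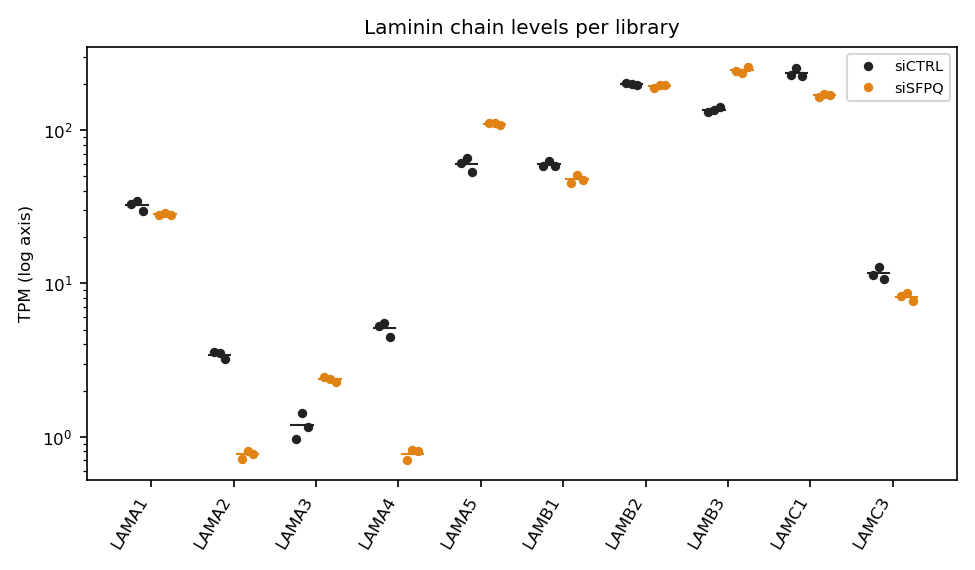
Level of laminin chains in TPM (vertical log axis) in each library, black for siCTRL and orange for siSFPQ, with a line at the mean of 3 libraries. LAMA2 and LAMA4 drop below 1.19 TPM, the siCTRL mean of LAMA3, while LAMA5 and LAMB3 lie above their siCTRL libraries.

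The promoters of 29 of the 41 genes were in the RefSeq table used here (GRCh38.p14), 37 promoters in all, each with 250 bases before and 50 after the start site. ITGA3, ITGA7, ITGA9, ITGAD, ITGAL, ITGAX, ITGB2, ITGB3, ITGB4, LAMA1 and LAMC3 were among the genes without one. The letters TGANTCA, bound by the transcription factor AP-1 and read on both strands, were in 3 of the 37 promoters (8.11%) and in 7.71% of all 35116 promoters of the table. The share was thus near that of all promoters. The 3 promoters belong to LAMA3, LAMB3 and ITGA5, which were higher in siSFPQ, ITGA5 by a log2 fold change of only 0.10. Whether the motif relates to the changes was not tested. The windows are shown because the partners LAMA3 and LAMB3 rose together, with the motif in capitals and 11 bases on each side, 5′ to 3′ on the gene's strand, from GRCh38.p14.
LAMA3, chr18:23872884-23872912, plus strand: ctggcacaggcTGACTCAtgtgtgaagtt
LAMA3, chr18:23872940-23872968, plus strand: ccttcctcaccTGAGTCAggcaggcccgg
LAMB3, chr1:209651424-209651452, minus strand: gtcagccactcTGACTCAttcactttggg
ITGA5, chr12:54419255-54419283, minus strand: cctccccgcgtTGAGTCAttcgcctctgg
LAMA3 held the motif at positions -125 and -69, LAMB3 at -67 and ITGA5 at -6, counted from the start site to the motif's first base. Of 5 other motifs searched on both strands, the GC box GGGCGG was in 54.1% of the 37 promoters and 45.0% of all, the TEAD site CATTCC in 10.8% and 14.0%, the TATA box TATAAA in 5.41% and 11.5%, and the E-box CACGTG in 2.70% and 7.26%. The GAS element TTCNNNGAA was in 5.41% and 7.66%. CATTCC was found in ITGA10, ITGA5, ITGB1 and LAMA2. These are matches of letters and not measured binding. The LAMA3 promoter belongs to a start site 184 kb inside the gene, from which 83.2 kb remain to the gene's end. The LAMB3 match belongs to a start site 1.05 kb inside the gene, and its promoters nearer the gene's start had no match. The counts per gene cannot tell which start was used.

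The integrin alpha chains that bind laminin are ITGA3, ITGA6 and ITGA7. ITGA3 (ENSG00000005884, chromosome 17, 50055968 to 50090481, plus strand), whose main ligands are the LAMA3 and LAMA5 laminins, had 43832, 45759 and 42657 normalized counts in siCTRL and 31168, 32317 and 32619 after the knock-down. It was lower, with a log2 fold change of -0.46 (SE 0.036, adjusted p = 6.22e-13). ITGA6 (ENSG00000091409, chromosome 2, 172427354 to 172506459, plus strand), which pairs with ITGB1 or with ITGB4, the integrin of hemidesmosomes, had 6199, 6500.0 and 6746 normalized counts in siCTRL and 11144, 11039.8 and 10979.9 after the knock-down, and rose with a log2 fold change of 0.77 (SE 0.038, adjusted p = 5.56e-18). ITGA7 (ENSG00000135424, chromosome 12, 55684568 to 55716404, minus strand), the laminin receptor of muscle, had 3057, 2924 and 3101 normalized counts in siCTRL and 4139.9, 3974 and 4036 after the knock-down, a log2 fold change of 0.42 (SE 0.042, adjusted p = 2.30e-10). The conditions did not overlap in any of the 3. Per length ITGA3 was the most abundant alpha chain in every library. Its share of all alpha chains went from 52.8% ± 1.10 to 38.3% ± 0.739, while that of ITGA6 went from 11.4% ± 0.488 to 19.4% ± 0.236. With the canonical length the share of ITGA6 was smaller and went from 6.84% ± 0.296 to 12.5% ± 0.156.

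Of the 4 alpha chains that bind collagen, 1 rose, 2 fell and 1 did not pass. ITGA2 (ENSG00000164171, chromosome 5, 52989340 to 53094779, plus strand), a collagen receptor of platelets, fibroblasts and epithelia that can also bind laminin, had 2233, 2663 and 2461 normalized counts in siCTRL replicates 1, 2 and 3 and 5990.2, 6331 and 6119 in the same replicates of siSFPQ. All siSFPQ libraries were far above all siCTRL libraries, with a log2 fold change of 1.33 (SE 0.048, adjusted p = 8.73e-22), 2.51-fold. Its share of the alpha chains per length went from 3.64% ± 0.242 to 9.13% ± 0.227, or from 1.92% ± 0.129 to 5.16% ± 0.127 with the canonical length. ITGA1, the other widespread collagen receptor, lies 30.1 kb upstream of ITGA2 on the same strand, yet its log2 fold change was 0.083 (SE 0.10, adjusted p = 0.56). ITGA11, a collagen receptor of fibroblasts, fell with a log2 fold change of -1.05 (SE 0.091, adjusted p = 9.63e-12), and ITGA10, the collagen receptor of cartilage, with log2 FC -0.95 (SE 0.22, adjusted p = 5.37e-04).

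The alpha chains that recognise the RGD peptide of fibronectin and related ligands changed little where they were abundant. ITGA5 (ENSG00000161638, chromosome 12, 54395261 to 54419266, minus strand), the fibronectin receptor, had 7964, 8059.9 and 7842 normalized counts in siCTRL and 8695, 8291 and 8586 after the knock-down, a log2 fold change of 0.10 (SE 0.037, adjusted p = 0.0273). This small rise did not pass without siCTRL replicate 3, without siSFPQ replicate 1 or with every gene of at least 1 count tested, where the adjusted p reached 0.0663. ITGAV (ENSG00000138448, chromosome 2, 186590010 to 186680901, plus strand), the partner of several beta chains in receptors for vitronectin and latent TGF-beta, had 18704, 19828 and 20404 normalized counts in siCTRL and 17694, 17903 and 17158 after the knock-down, and its log2 fold change was -0.16 (SE 0.037, adjusted p = 5.87e-04). ITGA8 (ENSG00000077943, chromosome 10, 15513954 to 15719922, minus strand), which binds nephronectin in the kidney, was much scarcer, with 31.1, 38.0 and 37.1 normalized counts in siCTRL replicates 1, 2 and 3 and 5.16, 8.81 and 7.89 in the same replicates of siSFPQ. Its siSFPQ libraries all lay below its siCTRL libraries, and its log2 fold change was -2.26 (SE 0.40, adjusted p = 1.91e-05), 4.78-fold lower. ITGA2B, the alpha chain of the platelet fibrinogen receptor, did not pass, with log2 FC 0.34 (SE 0.22, adjusted p = 0.219). The related chains ITGA4 and ITGA9, receptors for VCAM-1, fibronectin splice forms and tenascin, had log2 fold changes of -0.71 (SE 0.10, adjusted p = 6.89e-07) and -1.33 (SE 0.44, adjusted p = 0.0127). ITGA9 had 31.1, 34.0 and 23.1 normalized counts in siCTRL and 4.13, 8.81 and 21.7 after the knock-down, and siSFPQ replicate 3 lay close to the lowest siCTRL library. Without siSFPQ replicate 3 its log2 fold change was -2.14, and without siSFPQ replicate 1 or 2 it no longer passed, with an adjusted p of up to 0.111.

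ITGB1 (ENSG00000150093, chromosome 10, 32887273 to 33005792, minus strand), the common beta chain that pairs with most of the alpha chains above, was the most abundant integrin gene per length. It had 855, 920.2 and 881 TPM in the siCTRL libraries and 570.4, 661 and 589 TPM after the knock-down, and its reads may be shared with the processed pseudogene ITGB1P1, as those of LAMB2 with LAMB2P1. In normalized counts its log2 fold change was -0.52 (SE 0.038, adjusted p = 1.75e-13), to 69.7% of siCTRL. ITGB5 (ENSG00000082781, chromosome 3, 124761948 to 124901418, minus strand), a vitronectin-binding partner of ITGAV, had 18373, 18724 and 18599 normalized counts in siCTRL and 14563, 14649 and 15253 after the knock-down, a log2 fold change of -0.32 (SE 0.035, adjusted p = 1.91e-09). ITGB8 (ENSG00000105855, chromosome 7, 20330702 to 20415754, plus strand), the partner of ITGAV that activates latent TGF-beta, fell most among the beta chains. It had 3840.3, 4015 and 3711 normalized counts in siCTRL replicates 1, 2 and 3 and 1330.5, 1450.2 and 1327 in the same replicates of siSFPQ, and its log2 fold change of -1.49 (SE 0.048, adjusted p = 4.21e-23) falls just short of the fold threshold of -1.5, which it passed in 3 of 13 alternative analyses. ITGB3 (ENSG00000259207, chromosome 17, 47253827 to 47313743, plus strand), the partner of ITGAV and ITGA2B, rose and had 534, 649 and 696 normalized counts in siCTRL and 1329, 1307 and 1257 after the knock-down, a log2 fold change of 1.05 (SE 0.074, adjusted p = 5.75e-14). ITGB4 (ENSG00000132470, chromosome 17, 75721328 to 75757818, plus strand), the beta chain of hemidesmosomes, had 968, 994 and 997 normalized counts in siCTRL and 1359, 1402 and 1389 after the knock-down, a log2 fold change of 0.49 (SE 0.057, adjusted p = 8.37e-09). Both chains of the hemidesmosome integrin, ITGA6 and ITGB4, rose.

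Per length the beta chains summed to 1180.0 ± 37.9 TPM in siCTRL and 845 ± 51.8 TPM in siSFPQ, a ratio of 0.716, and the alpha chains to 733 ± 21.7 TPM in siCTRL and 722 ± 15.9 TPM in siSFPQ, a ratio of 0.985 with overlap between the conditions. The share of ITGB1 went from 75.0% ± 0.415 to 71.8% ± 1.35 of the beta chains, that of ITGB4 from 1.07% ± 0.0182 to 2.05% ± 0.0625 and that of ITGB8 from 1.86% ± 0.0718 to 0.906% ± 0.0126. With the length of the canonical transcript in place of all exons, the ratio was 0.710 for the beta chains and 0.934 for the alpha chains, whose libraries then did not overlap. The shares depended more on the length used. With the canonical length that of ITGB1 went from 88.7% ± 0.218 to 87.2% ± 0.745. The share of ITGB4 then went from 0.371% ± 0.00742 to 0.735% ± 0.0297 and that of ITGB8 from 0.952% ± 0.0380 to 0.477% ± 0.00473.

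**Figure D3:**
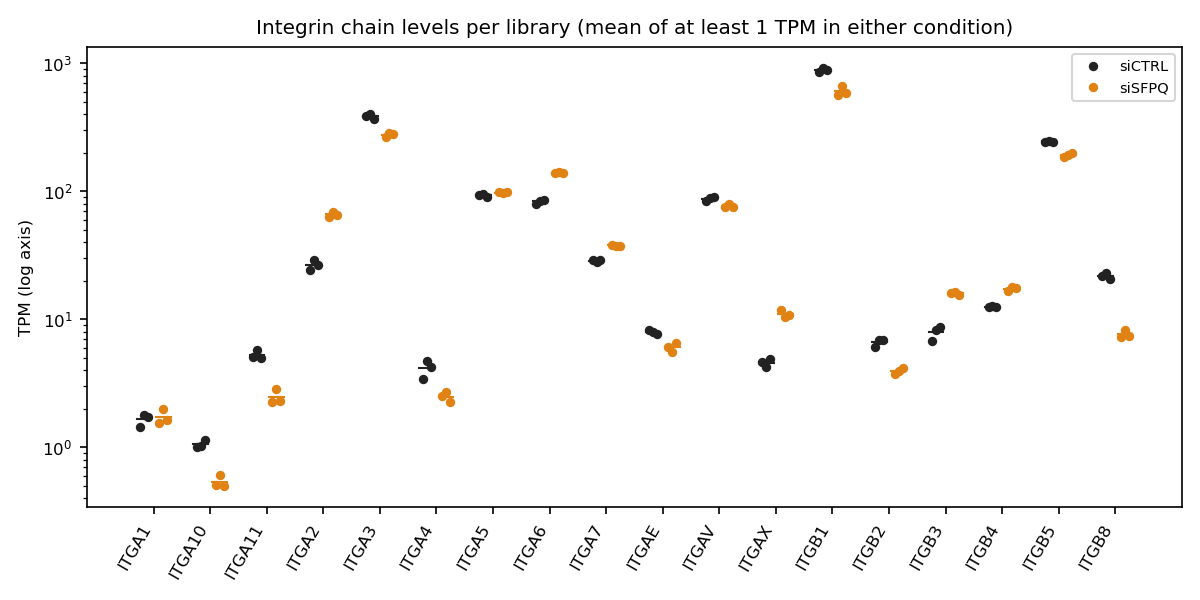
Level of each integrin chain with a mean of at least 1 TPM in either condition (vertical log axis), in each library, black for siCTRL and orange for siSFPQ, with a line at the mean of 3 libraries. The values span from 0.496 TPM (ITGA10 in siSFPQ) to 920.2 TPM (ITGB1 in siCTRL), and ITGA2, ITGA6, ITGAX and ITGB3 lie above their siCTRL libraries while ITGA3, ITGA11, ITGB1 and ITGB8 lie below.

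Of the chains known best from leukocytes, ITGAM, ITGAD, ITGAL and ITGB7 had at most 39 counts in any library, while ITGAX, ITGAE, ITGB2 and ITGA4 each had more. ITGAX (ENSG00000140678, chromosome 16, 31355134 to 31382999, plus strand) is the CD11c chain of dendritic cells and had 378, 349 and 406 normalized counts in siCTRL replicates 1, 2 and 3 and 1001, 855 and 907 in the same replicates of siSFPQ. It rose with a log2 fold change of 1.29 (SE 0.082, adjusted p = 4.25e-15) and without overlap. ITGAM (ENSG00000169896, chromosome 16, 31259967 to 31332892, plus strand), the CD11b chain of myeloid cells, had 16, 3 and 1 counts in siCTRL and 39, 21 and 34 in siSFPQ, a log2 fold change of 2.21 (SE 0.52, adjusted p = 7.07e-04). ITGB7 (ENSG00000139626, chromosome 12, 53191323 to 53207282, minus strand), the beta chain of gut-homing lymphocytes, had 8, 8 and 4 counts in siCTRL and 14, 25 and 26 in siSFPQ, a log2 fold change of 1.67 (SE 0.49, adjusted p = 0.00573). Both genes thus passed the 2 thresholds on at most 39 reads per library, and siSFPQ was above siCTRL in each. Leaving out siCTRL replicate 3 took ITGB7 to 1.41, under the fold threshold, and ITGAM, with most of its siCTRL counts in replicate 1, varied from 1.71 without siCTRL replicate 3 to 3.89 without siCTRL replicate 1. ITGAD, a further CD11 chain, had 0, 14 and 12 counts in siCTRL and 22, 22 and 28 in siSFPQ, with log2 FC 1.45 (SE 0.54, adjusted p = 0.0268), and it lost its call in 5 of 13 alternative analyses, where its adjusted p reached 0.114, and its log2 fold change was 0.87 without siCTRL replicate 1, the library at 0. ITGAM, ITGAX and ITGAD are consecutive genes of this set on chromosome 16, 22.2 and 10.3 kb apart and on the same strand, and all 3 were higher. ITGB2, the beta chain that pairs with them, was lower, with log2 FC -0.72 (SE 0.088, adjusted p = 1.98e-08), and so was ITGAE, a partner of ITGB7, with log2 FC -0.37 (SE 0.082, adjusted p = 3.06e-04). ITGAL, the alpha chain of LFA-1, had at most 9 counts in any library and did not pass, with log2 FC -0.27 (SE 1.07, adjusted p = 0.87). The epithelial chain ITGB6 had at most 15 counts in any library, and its log2 fold change was 0.32 (SE 0.67, adjusted p = 0.747).

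Markers of leukocytes, 12 genes, summed to 1.41 to 2.38 CPM in siCTRL and 1.49 to 1.95 CPM in siSFPQ. Of these, CD3E, CD2, TYROBP and AIF1 were among those that had too few counts to be tested. The pan-leukocyte gene PTPRC was lower, with a log2 fold change of -1.61 (SE 0.41, adjusted p = 0.00147), while CD3D was higher, with log2 FC 1.77 (SE 0.48, adjusted p = 0.00269). Both calls rest on few reads, since all 12 genes together came to at most 2.38 CPM in any library. The 8 epithelial markers summed to 14.0 to 16.9 CPM in siCTRL and 35.9 to 38.6 CPM in siSFPQ. Of the 7 tested, 3 rose (CLDN4, RAB25 and CDH1) and 4 did not pass, with log2 fold changes down to -0.88. Among those 4, EPCAM had log2 FC -0.18 (SE 0.12, adjusted p = 0.242). GRHL2 was too low to test. How much each marker gave to the sum is not given here. Platelet markers summed to 8.41 to 8.77 CPM in siCTRL and 16.9 to 18.7 CPM in siSFPQ, with PF4, PPBP and GP9 at 0 in every library. That sum rests on the other 2 of the 5 markers, GP1BA and GP6, of which 1 was higher and neither passed both thresholds. Endothelial markers summed to 5.74 to 7.39 CPM in siCTRL and 7.88 to 8.76 CPM in siSFPQ, and those of osteoblasts to 5904 to 6113 CPM in siCTRL and 5581 to 5617 CPM in siSFPQ. Of the 7 osteoblast markers tested, 2 were higher and 2 lower. BGLAP, the only osteoblast marker past both thresholds, rose with a log2 fold change of 3.65, and it overlaps PMF1-BGLAP. The part of the epithelial and platelet markers in the rise of LAMA3, LAMB3, ITGB4, ITGA2 and ITGB3 was not tested.

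The 3 integrin-binding proteins did not pass the test. ITGB1BP1, which binds the tail of ITGB1, had 3652, 3590.0 and 3938 normalized counts in siCTRL and 3748, 3794 and 3889 after the knock-down, with a log2 fold change of 0.032 (SE 0.043, adjusted p = 0.589). ITGB3BP, also a centromere protein, had 1181, 1317 and 1236 normalized counts in siCTRL and 1206, 1253 and 1155 after the knock-down, with log2 FC -0.048 (SE 0.059, adjusted p = 0.561). ITGB1BP2, a chaperone of striated muscle, had log2 FC -0.41 (SE 0.21, adjusted p = 0.116).

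The spans of the genes, from start to end with introns included, were then set against their changes. The 40 tested genes were long, with a median span of 79.3 kb beside 32.7 kb over the protein-coding genes tested. Over the 40 genes the log2 fold change fell with the logarithm of the span, with a Spearman coefficient of -0.385 and a Pearson coefficient of -0.368. Over all 16477 protein-coding genes tested the coefficients were -0.275 and -0.286. These describe genes measured in the same libraries, which are not independent replicates, so no p is given. For the 26 integrin chains the Spearman coefficient was -0.452 and for the 11 laminin chains tested -0.345. Among the 33 genes with a mean of at least 1 CPM it was -0.239, beside -0.302 for the protein-coding genes at that level. The longest intron gave -0.273 in place of the span.

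Of the 14 tested genes over 100 kb, 2 were higher (ITGA2 and LAMA3) and 9 were lower, 3 of them past both thresholds, with a median of -0.40. Among protein-coding genes over 100 kb, 14.6% were higher and 56.5% lower, 16.8% were lower past both thresholds, and the median was -0.35. Of the 26 genes of 100 kb or less, 11 were higher and 10 were lower with a median of 0.0019, where 31.6% of the protein-coding genes of that size were higher, 24.2% lower and their median was 0.053. ITGAM and ITGB7 are among them, and 3.79% of the protein-coding genes of that size were higher past both thresholds. Over 100 kb the shares thus lay near those of other genes over that limit. At 100 kb or less both shares were above those of protein-coding genes, but for lower genes this held only from 50 to 100 kb. There 58.3% were lower, beside 33.9% of protein-coding genes, while up to 50 kb 21.4% were lower, beside 21.6%. The share of higher genes was above that of protein-coding genes in both of these classes. By class, the medians were 0.22 up to 50 kb (14 genes), -0.26 from 50 to 100 kb (12 genes), -0.25 from 100 to 200 kb (10 genes) and -1.73 over 200 kb (4 genes), and those of protein-coding genes were 0.072, -0.021, -0.18 and -0.79.

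The 4 genes over 200 kb were LAMA2 (633 kb, longest intron 167 kb), ITGA9 (371 kb), LAMA3 (267 kb) and ITGA8 (206 kb). The log2 fold changes of LAMA2, ITGA9 and ITGA8 were -2.14, -1.33 and -2.26, while LAMA3 rose by 1.02. The middle 50% of the protein-coding genes of that size lay between -1.76 and -0.16, so LAMA2 and ITGA8 were below that range, ITGA9 within it and LAMA3 above it. Between 100 and 200 kb, LAMA4 (147 kb) fell most and ITGA11 (136 kb) next. ITGA2 (105 kb) rose, and ITGA1 (171 kb), ITGB3BP (153 kb) and ITGB6 (101 kb) did not pass. Under 100 kb, ITGB8 (85.1 kb) and ITGA10 (18.9 kb) fell most. ITGB1 spans 119 kb in the annotation, but the 2 start sites RefSeq gives leave 71.0 and 48.3 kb to its end. The RefSeq start site of LAMA3 leaves 83.2 kb and that of ITGB3BP 82.5 kb. From those starts ITGB1, LAMA3 and ITGB3BP would all fall under 100 kb, and the counts per gene cannot tell which start was used.

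The partners of integrins inside the cell were read from a list of 49 adhesion genes, all tested, of which 11 were higher and 23 lower, 1 and 6 of them past both thresholds, with a median of -0.14. RSU1, a scaffold of the ILK, PINCH and parvin complex, fell most. It had 3231, 3226 and 3351 normalized counts in siCTRL and 343, 372 and 347 after the knock-down, a log2 fold change of -3.21 (SE 0.058, adjusted p = 5.40e-30). LIMS1, the PINCH protein of the same complex, fell with log2 FC -1.66 (SE 0.046, adjusted p = 4.63e-25), and PARVA, its parvin, with log2 FC -1.07 (SE 0.041, adjusted p = 4.39e-21). The actin-associated proteins PALLD and LPP fell with log2 FC -2.01 (SE 0.042, adjusted p = 2.24e-28) and log2 FC -1.95 (SE 0.051, adjusted p = 1.27e-25), the signalling adaptor DOCK1 with log2 FC -1.99 (SE 0.053, adjusted p = 1.44e-25) and the kinase PTK2B with log2 FC -1.64 (SE 0.12, adjusted p = 1.08e-13). TNS4, a tensin that binds integrin tails, was the only gene of the list past both thresholds in the higher direction, with 47.1, 34.0 and 53.1 normalized counts in siCTRL and 408, 328 and 330.4 after the knock-down and a log2 fold change of 2.99 (SE 0.15, adjusted p = 1.58e-17). Talin-1 and kindlin-2, which switch integrins on, had values close to 0, with log2 FC -0.15 (SE 0.038, adjusted p = 0.00107) for TLN1 and log2 FC -0.0028 (SE 0.037, adjusted p = 0.964) for FERMT2. Vinculin (VCL) had log2 FC -0.66 (SE 0.037, adjusted p = 1.14e-16) and paxillin (PXN) log2 FC 0.86 (SE 0.039, adjusted p = 5.49e-19).

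Of 28 matrix ligands and laminin partners, 26 were tested, 2 were higher and 16 lower, with 0 and 4 past both thresholds and a median of -0.45. NTN1, a laminin-related guidance protein, fell with log2 FC -2.42 (SE 0.068, adjusted p = 9.05e-25). THBS1, a matrix glycoprotein bound by several integrins, had 43276, 43144 and 42413 normalized counts in siCTRL and 11279, 12269.8 and 11313 after the knock-down, a log2 fold change of -1.89 (SE 0.038, adjusted p = 8.46e-29). COL4A5, a type IV collagen chain of basement membranes, fell with log2 FC -1.83 (SE 0.075, adjusted p = 2.81e-20), and COL4A6, the fourth gene past both thresholds, had a mean of 0.784 CPM and a log2 fold change of -3.71 (SE 0.39, adjusted p = 7.80e-10). Fibronectin (FN1) had log2 FC -0.53 (SE 0.045, adjusted p = 4.48e-12), and the laminin linker NID1 log2 FC -0.37 (SE 0.040, adjusted p = 1.88e-09). TNC, which ITGA9 binds, rose with log2 FC 0.34 (SE 0.040, adjusted p = 1.09e-08), and CDH1, the ligand of ITGAE, with log2 FC 0.76 (SE 0.23, adjusted p = 0.00719).

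The 14 laminin receptors other than integrins and the enzymes that glycosylate one of them, dystroglycan, had 6 higher and 5 lower genes, 0 and 2 of them past both thresholds, with a median of 0.044. SDC2, a cell-surface proteoglycan, had 6058, 6725 and 6394 normalized counts in siCTRL and 827, 938 and 855 after the knock-down, a log2 fold change of -2.87 (SE 0.051, adjusted p = 4.17e-30). Dystroglycan itself (DAG1) had log2 FC -0.23 (SE 0.036, adjusted p = 1.70e-06). Of 6 hemidesmosome partners, 3 were higher (COL17A1, KRT5 and DST) and 3 lower (KRT14, CD151 and PLEC), of which KRT14 passed both thresholds. KRT14, a keratin of basal epithelium, had 713, 691 and 665 normalized counts in siCTRL and 186, 211 and 188 after the knock-down, a log2 fold change of -1.82 (SE 0.092, adjusted p = 9.82e-18), and COL17A1, the collagen of hemidesmosomes, had log2 FC 0.49 (SE 0.070, adjusted p = 4.36e-07). Of all protein-coding genes tested, 28.0% were higher and 30.9% lower, and 3.28% and 4.97% passed both thresholds. Among those over 100 kb, 16.8% were lower past both thresholds. The changes of the list genes were not set against their spans, and nothing particular to these lists is drawn from their counts.

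The strand setting of the counting is not given in the sources used here, so reads of overlapping genes may have been split or left out. Of the 41 genes, 32 overlap another annotated gene and 12 a protein-coding one. ITGB4 overlaps GALK1 on the opposite strand, and GALK1 rose by nearly the same amount, 0.51. ITGA4 overlaps CERKL, which fell by 0.73, close to its own -0.71. LAMA5 overlaps ADRM1 (0.26), LAMB1 overlaps DLD (0.045), ITGB7 overlaps ZNF740 (0.086) and ITGA1 contains PELO (0.32). LAMA4, LAMA2, LAMB3 and ITGA2 overlap no protein-coding gene with counts, and ITGA8, ITGA3 and ITGAM overlap no gene. Of the list genes named, PALLD overlaps CBR4 and DDX60L, DOCK1 overlaps INSYN2A and THBS1 overlaps FSIP1.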

How the data were processed

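Polyadenylated RNA of 3 siCTRL and 3 siSFPQ cultures was made into stranded TruSeq libraries and read from both ends. Per the study's methods and the labels, the authors ran FastQC, mapped reads to Ensembl's GRCh38 with STAR 2.7.9a and deposited the resulting whole-number counts for each Ensembl gene. Of the table's columns of sample values, 0 stayed unused. The strand setting of the counting is not given in the sources used here.

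Genes that reached 10 counts over all libraries, 29022 in number, went into a quasi-likelihood F test of edgeR 4.0.16 (R 4.3.3) after TMM normalization, without covariates, and p was adjusted by the Benjamini-Hochberg method. All adjusted p and standard errors come from this fit. The study itself used DESeq2 with the same thresholds. Normalized counts are counts over effective library size, times the geometric mean of those sizes. TPM was computed from the counts and the summed exon length of GENCODE release 44, which holds 99.7% of the identifiers and gave names and spans. The scripts were tested on simulated data.

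Alternatives were edgeR's filterByExpr or at least 1 count, RLE factors or library size alone, DESeq2 1.42.0, protein-coding genes only, the replicate number as a block, a fold threshold of 1, other span measures and limits, the integrin-binding proteins left out, and fits that leave out each library. Libraries of 1 condition differed by more than sampling noise.

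The genes, lists and motifs were chosen with earlier results of these data known, and the motifs after the changes were seen. Values in every library are given for genes past both thresholds or with a mean of at least 10 TPM in either condition. Of the lists, genes past both thresholds were named, at most 6 per list and direction with a mean of at least 1 CPM. Other list genes, COL4A6 among them, and markers were named after their values were seen. A few genes that these rules cover are not reported here.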

Additional observations from a re-analysis of the deposited data

How the results depend on the processing

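Over 13 alternative fits across all genes, 29 of the 32 called genes kept their call at an adjusted p under 0.05, the exceptions being ITGA9, ITGA5 and ITGAD, and 35 of 40 kept their sign in each fit. With a fold threshold of 1, 7 genes were higher and 6 lower past both thresholds. Direction changed, without a call, for ITGA1 (-0.030 to 0.15, at -0.0063 without siCTRL replicate 1 and lowest without siSFPQ replicate 2) and ITGB6 (-0.42 to 0.73, lowest without siSFPQ replicate 1) with single libraries left out, ITGB3BP (0.016) and LAMB2 (0.035) with library size alone, and ITGAL (0.11 with the replicate block, -0.85 to 1.48 with single libraries left out, at 1.48 without siCTRL replicate 2 and 0.13 without siSFPQ replicate 2). The cause was not tested. Over all genes, filterByExpr moved the genes past both thresholds from 1609 to 967 higher and from 1384 to 996 lower, over 21270 genes tested in place of 29022.

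Between siCTRL and siSFPQ libraries of the same replicate number, the correlations of deviations from the condition mean were -0.028, 0.068 and 0.033. Of the siCTRL libraries, 2 of 3 correlated best with their own number. With 3 libraries per condition these values cannot decide whether the numbers pair the libraries. With the replicate block, 13 genes were higher and 19 lower, as without it, and 3 and 3 passed both thresholds. The log2 fold change of SFPQ was -2.74 with the block.

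The Spearman coefficient with span was -0.405 with filterByExpr, -0.345 with at least 1 count, -0.447 without the integrin-binding proteins, -0.239 at 1 CPM or more and -0.273 with the longest intron, and -0.397 to -0.354 with single libraries left out. The median over 100 kb minus that at or under it was -0.397. It was -0.511 with a limit of 50 kb, -1.63 with 200 kb, -0.231 at 1 CPM or more, -0.502 without the integrin-binding proteins, -0.498 with filterByExpr, -0.327 with at least 1 count and -0.461 with the replicate block. It ranged from -0.471 to -0.397 with single libraries left out.

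With the canonical transcript as length, an alternative chosen after seeing the data, the siSFPQ to siCTRL ratio was 0.934 for summed integrin alpha chains, 1.31 for laminin alpha and 1.15 for laminin beta chains. With single libraries left out it was 0.975 to 1.00 for integrin alpha (1.00 without siCTRL replicate 2), 1.05 to 1.09 for all laminin chains and 1.33 to 1.45 for laminin alpha. Genes under 1 CPM, 7 of the 40, rest on few reads. With 3 libraries per condition an exact test of a single value cannot give a p under 0.1.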

Other observations

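The table also holds 12 genes with the same letters in their symbols that are not protein-coding. ITGA9-AS1, a long non-coding RNA on the strand opposite ITGA9, had 278, 317 and 260 counts in siCTRL and 96, 125 and 102 after the knock-down. Its log2 fold change in edgeR's quasi-likelihood fit was -1.41 (SE 0.13, adjusted p = 4.94e-11), beside -1.33 for the much scarcer ITGA9, and all siSFPQ libraries were lower. ITGB5-AS1, on the strand opposite ITGB5, had 1, 1 and 0 counts in siCTRL and 19, 21 and 10 in siSFPQ, with an adjusted p of 4.83e-05. No fold change is given for it because every siCTRL library was under the floor of 3 counts, and against that floor the rise was at least 5.55-fold. ITGB5 itself was lower, with a log2 fold change of -0.32. The pseudogene ITGB1P1 fell with a log2 fold change of -0.81 (SE 0.087, adjusted p = 1.42e-09), in the direction of ITGB1, and had 651, 649 and 564 counts in siCTRL. The pseudogene LAMB2P1, near LAMB2 on chromosome 3, went from 22, 49 and 36 to 118, 107 and 107 counts, a log2 fold change of 1.63 (SE 0.23, adjusted p = 2.74e-07), while LAMB2 had -0.028. Reads of a gene and of a pseudogene copied from it cannot be fully told apart by such counts. Of the other 8 genes, ITGA6-AS1 had too few counts to be tested and 7 did not pass, including ITGB8-AS1 with a log2 fold change of -0.13 (SE 0.26, adjusted p = 0.734) beside the fall of ITGB8.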
